A study of Mus musculus with 9 samples.

Results

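Alpl, Ank and Smpd3 encode 3 proteins that act on the chemistry of cartilage and bone mineral, and their levels were followed through the growth plate of newborn mice. Every feature of the array that is annotated to 1 of these genes alone was taken, which gave 5 probe sets (1 for Alpl, 1 for Ank and 3 for Smpd3) of 34945 single-gene probe sets. All 3 genes passed the filter on low values, with 11313 of 18193 genes. The 3 genes were chosen by their role in mineralisation with layer differences measured on these same arrays in view, in which Alpl and Smpd3 stood among the largest flat-over-round differences. Their own values are therefore given as a description, with no test.

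The samples were the hypertrophic, flat and round cell layers of the proximal tibial growth plate, each from 3 litters, so 9 arrays in all. Every sample came from wild-type mice of the Black Swiss stock at birth (postnatal day 0), with no transgene or treatment in any group. A sample pooled 18 to 20 tibiae of a litter, and each layer was cut by hand from cryosections with no step that sorts chondrocytes from other cells. RNA went onto Affymetrix mouse genome arrays, and the deposited value is the MAS5 signal, a summary of probe brightness in arbitrary units that cannot be compared between genes.

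In the growth plate, small round chondrocytes give rise to stacked flat ones that divide in columns, and these enlarge into hypertrophic chondrocytes whose matrix mineralises. Mineral forms when phosphate is plentiful and inorganic pyrophosphate, which blocks crystal growth, is scarce. Alpl (tissue-nonspecific alkaline phosphatase), a zinc enzyme held on the outer cell surface and on matrix vesicles by a lipid anchor, splits pyrophosphate into phosphate. Ank is a membrane protein needed for the release of ATP, pyrophosphate and citrate, and mice that lack its function deposit mineral in their joints. Smpd3 (neutral sphingomyelinase 2) cuts sphingomyelin into ceramide and phosphocholine, and mice with the recessive fragilitas ossium deletion in it have poorly mineralised cartilage and bone.

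Summed signals of 8 round-layer markers lay between 1207 and 1518 on hypertrophic arrays, 2313 and 3404 on flat arrays and 34000 and 47894 on round arrays. Summed signals of 7 hypertrophic markers lay between 88240 and 102750 on hypertrophic arrays, 25752 and 45185 on flat arrays and 6730 and 12044 on round arrays, so the markers followed the layer labels. A pair of arrays stood apart. Flat array 3 had the highest skeletal muscle score (1.46, in mean log2 units relative to the 9 arrays, against -1.06 to 0.57 on the 8 others). Round array 1 had an actin 3′/5′ ratio of 4.25, against 1.45 to 2.06 on the others, a sign of more degraded or more shortened RNA. The flat minus round and hypertrophic minus flat differences of Alpl, Ank and Smpd3 are given with and without these arrays, and for other genes their omission is given where it ended a call or changed a count by over 1.5 times.

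Alpl was far higher in the hypertrophic and flat layers than in the round layer. Its probe set 1423611_at had signals of 12332, 12851 and 10510 on hypertrophic arrays, 7505, 10316 and 4468 on flat arrays and 694, 644 and 457 on round arrays (litters 1, 2 and 3). No layer overlapped another, and the flat arrays were the most spread. The means were 11898 ± 1230 in the hypertrophic layer, 7430 ± 2925 in the flat layer and 598 ± 125 in the round layer (SD, n = 3 each).

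The fitted difference of Alpl between flat and round layers was 3.52 ± 0.16 (SE) on the scale of log2(signal + 26), a 12.4-fold difference of mean signals. Hypertrophic over flat it was 0.75 ± 0.16, or 1.60-fold. Hypertrophic over round it was 4.27 ± 0.16, or 19.9-fold. Within the 3 litters the flat-over-round difference was 3.39, 3.95 and 3.22, and the hypertrophic-over-flat difference 0.71, 0.32 and 1.23, so the smaller step differed most between litters. On the log2 scale the flat layer had 82.4% of the difference between the hypertrophic and round levels, but on the plain signal scale the share was 59.2%, with litters between 39.9% and 79.2%. Among the 11313 genes tested, Alpl ranked 4 from the top in flat minus round and 496 in hypertrophic minus flat, a position that only describes the choice of the gene.

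Without flat array 3 the Alpl differences were 3.71 ± 0.16 for flat minus round and 0.56 ± 0.16 for hypertrophic minus flat. Without round array 1 they were 3.59 ± 0.18 and 0.75 ± 0.15. In bulk tissue of this kind, fewer cells of a type and less RNA per cell cannot be told apart.

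Ank did not follow Alpl. It was lowest in the flat layer and highest in the hypertrophic layer, with the round layer between. Its probe set 1450627_at gave 1925, 3057 and 2151 on hypertrophic arrays, 789, 1062 and 764 on flat arrays and 1291, 1494 and 1775 on round arrays. The ranges of the 3 layers did not overlap, but the highest round array and the lowest hypertrophic array were close. The means were 2378 ± 599 in the hypertrophic layer, 872 ± 165 in the flat layer and 1520 ± 243 in the round layer (SD, n = 3 each).

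The Ank difference was -0.79 ± 0.16 for flat minus round, a 0.573-fold level, and 1.41 ± 0.16 for hypertrophic minus flat, a 2.73-fold level. Hypertrophic minus round was 0.62 ± 0.16, or 1.56-fold, with litters at 0.57, 1.02 and 0.27. The hypertrophic minus flat difference was the steadiest of the 3 across litters (1.26, 1.50 and 1.46). Flat minus round was -0.69, -0.48 and -1.19 in the litters, so the dip in the flat layer was present in each. Without round array 1 the dip was -0.80 ± 0.18, and without flat array 3 it was -0.67 ± 0.18. Hypertrophic minus flat was 1.41 ± 0.15 without round array 1 and 1.29 ± 0.18 without flat array 3.

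Markers of endothelial cells had the layer order of Ank in their summed signal. Of 10 endothelial markers tested, 3 fell in flat relative to round and 7 rose in hypertrophic relative to flat, and their summed signal was 17284 to 18194 on hypertrophic arrays, 10877 to 12717 on flat arrays and 13441 to 15707 on round arrays. None of these endothelial genes was at 0 on any array, nor was any gene of the other marker lists, some of them below the filter. A value above 0 is thus no sign of detection here. All 19 skeletal muscle markers moved the other way and rose in flat relative to round, with sums of 160500 to 379000 on hypertrophic, 378430 to 616810 on flat and 159650 to 261180 on round arrays. With the muscle score as a covariate, Ank differed by -0.80 ± 0.40 for flat minus round and by 1.42 ± 0.31 for hypertrophic minus flat. The part of endothelial cells in the Ank values was not tested.

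Smpd3 resembled Alpl, with a somewhat larger share of its increase in the last step, though the litters overlapped in that share. Probe set 1438665_at, the one with the highest mean, gave 3544, 5127 and 5351 on hypertrophic arrays, 1984, 2896 and 1402 on flat arrays and 160, 286 and 193 on round arrays. The layers did not overlap. Its means were 4674 ± 985 in the hypertrophic layer, 2094 ± 753 in the flat layer and 213 ± 65.6 in the round layer (SD, n = 3 each).

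For this probe set flat minus round was 3.12 ± 0.19, a 9.82-fold difference of means. Hypertrophic minus flat was 1.19 ± 0.19, or 2.23-fold, and hypertrophic minus round was 4.31 ± 0.19, or 21.9-fold. Litter 3 had the smallest flat-over-round difference (2.70, against 3.44 and 3.23) and the largest hypertrophic-over-flat difference (1.91, against 0.83 and 0.82), and its flat array is the one with the high muscle score. Without that array the values were 3.41 ± 0.17 and 0.90 ± 0.17. Without round array 1 they were 3.05 ± 0.22 and 1.19 ± 0.19.

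The other Smpd3 probe sets gave the same order of layers. For 1422779_at the signals were 2093, 2494 and 2581 on hypertrophic arrays, 1098, 1394 and 972 on flat arrays and 23.3, 14.4 and 77.8 on round arrays. For 1450748_at they were 744, 919 and 928 on hypertrophic arrays, 284, 605 and 309 on flat arrays and 18.3, 90.0 and 24.0 on round arrays. On the round arrays both lay below the filter level of 122.29, so their size relative to the round layer rests on weak signal. Flat minus round was accordingly 4.30 ± 0.27 for the first and 2.67 ± 0.29 for the second, while hypertrophic minus flat was 1.04 ± 0.27 and 1.13 ± 0.29, close to the value of 1438665_at. The share of the log2 difference reached in the flat layer was 72.5% for 1438665_at, 80.5% for 1422779_at and 70.2% for 1450748_at. Litters ranged from 58.6% to 80.6%, 70.2% to 86.1% and 64.6% to 80.7% in the same order, and from 72.4% to 92.6% for Alpl. On the plain signal scale the shares were 43.8%, 47.8% and 43.4%.

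**Figure D1:**
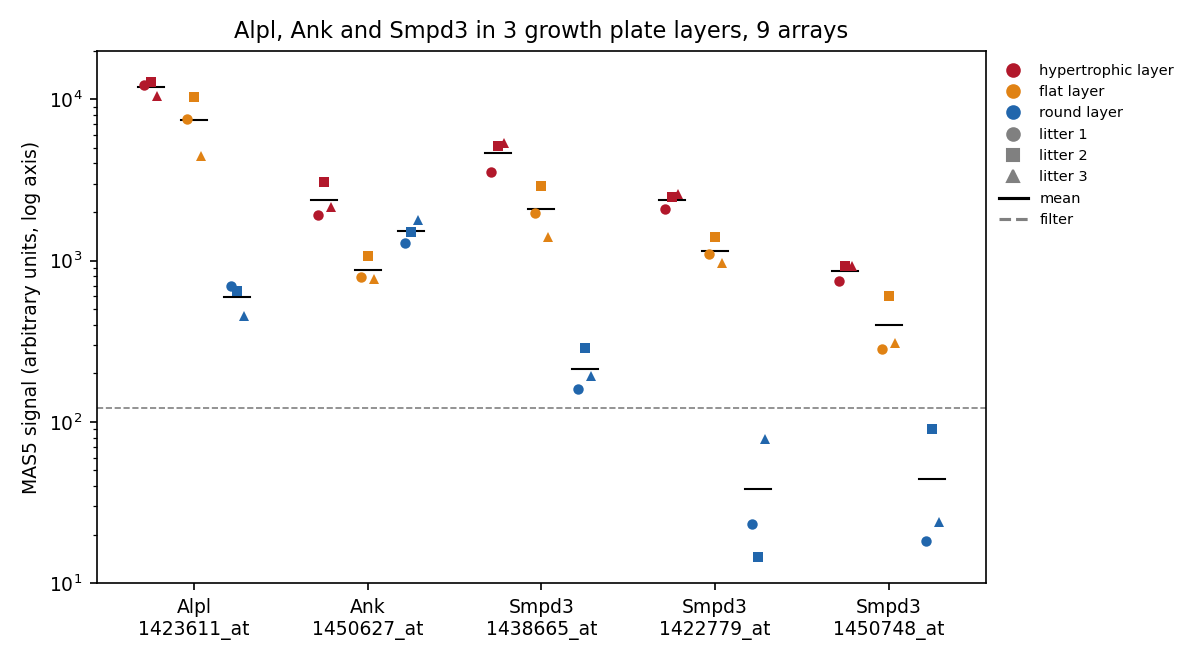
MAS5 signal (log axis, arbitrary units) of the 5 probe sets of Alpl, Ank and Smpd3 on the 9 arrays, with the hypertrophic, flat and round layers from left to right for each probe set; each point is an array, its shape the litter, black bars are means of 3 and the dashed line is the filter level of 122.29. Alpl and all Smpd3 probe sets are lowest on the round arrays, and Ank is lowest on the flat arrays.

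Taking the 5 probe sets and the 3 pairs of layers, each difference had the same direction in 3 of 3 litters and no pair of layers overlapped. The smallest differences next to the spread between litters were Alpl in hypertrophic over flat (0.75, with an SD of 0.46 over litters) and Ank in hypertrophic over round (0.62, with an SD of 0.38). Of all genes tested, 25.3% had no overlap between the flat and round arrays, 22.7% between the hypertrophic and flat arrays and 36.5% between the hypertrophic and round arrays, in either direction. Since the genes were picked with these contrasts in view, nothing is read from their position against that background.

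**Figure D2:**
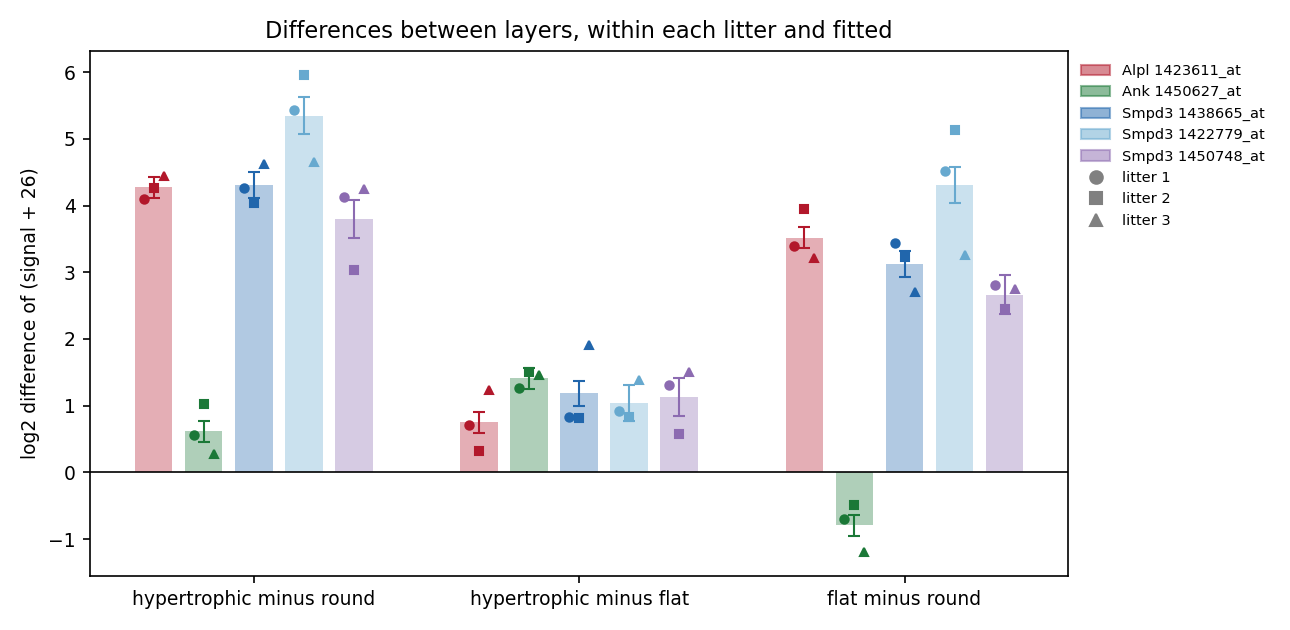
Differences between layers in log2(signal + 26) for the 5 probe sets: bars are the fitted differences, error bars their SE from limma with litter as a block, and points the 3 litters. Ank is the one gene with a negative flat-minus-round difference (-0.79), while its hypertrophic-minus-flat difference (1.41) lies beside those of Smpd3.

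Alpl and Smpd3 had a Pearson's r of 0.981 over the 9 arrays, while Ank had 0.106 with Alpl and 0.224 with Smpd3. These values describe mainly the layers, since the arrays fall into 3 layers and the genes share each array. After each layer's mean was removed, r was 0.583 for Alpl with Smpd3, 0.608 for Ank with Smpd3 and 0.261 for Alpl with Ank. What is left then is the spread between arrays of the same layer, from litters and from any other difference between the arrays. On flat array 2 all 3 genes were above their layer mean, by 0.55 (Alpl), 0.29 (Ank) and 0.52 (Smpd3), and on flat array 3 all were below it, by -0.65, -0.17 and -0.51. The r among the Smpd3 probe sets was 0.936 to 0.988 over the arrays, but -0.201 to 0.840 after the layer means were removed, so single arrays at low signal were not matched closely between them.

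The genes lie at separate places in the genome (GRCm38.p6): Alpl on chromosome 4 from 137741731 to 137796384, Ank on chromosome 15 from 27466677 to 27594909 and Smpd3 on chromosome 8 from 106252548 to 106337965. The 250 bases upstream of the annotated starts are shown for Alpl, lowest in the round layer, and Ank, lowest in the flat layer, so that the start regions of genes with unlike profiles can be compared. They come from RefSeq and run 5′ to 3′ on the gene's strand. Capitals mark matches, on either strand, to GGGCGG (the GC box), TGTGGT (the core of the Runx site) or TATAAA (the TATA box). Alpl has a pair of annotated starts.
Alpl upstream start, chr4:137796385-137796634, minus strand: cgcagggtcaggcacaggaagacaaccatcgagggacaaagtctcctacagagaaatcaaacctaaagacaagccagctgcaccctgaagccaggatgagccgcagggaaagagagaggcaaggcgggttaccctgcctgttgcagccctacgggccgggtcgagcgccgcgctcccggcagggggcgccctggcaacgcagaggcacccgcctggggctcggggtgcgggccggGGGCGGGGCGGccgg
Alpl downstream start, chr4:137766476-137766725, minus strand: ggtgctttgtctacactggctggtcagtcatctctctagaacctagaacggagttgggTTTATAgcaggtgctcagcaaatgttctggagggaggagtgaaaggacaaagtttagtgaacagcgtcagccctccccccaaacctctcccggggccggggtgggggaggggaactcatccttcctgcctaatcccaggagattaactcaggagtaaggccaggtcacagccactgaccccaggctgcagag
Ank, chr15:27466427-27466676, plus strand: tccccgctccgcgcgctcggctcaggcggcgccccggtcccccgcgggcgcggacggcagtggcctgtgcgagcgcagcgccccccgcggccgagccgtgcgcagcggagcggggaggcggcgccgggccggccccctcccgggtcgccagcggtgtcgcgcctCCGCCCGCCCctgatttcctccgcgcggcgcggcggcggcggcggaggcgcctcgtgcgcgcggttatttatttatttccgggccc

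The window at the upstream Alpl start held 68.4% G and C, 20 CpG dinucleotides and 2 GC boxes that share letters. That at the downstream Alpl start held 56% G and C, 4 CpG and 1 TATA box, which lies on the opposite strand. The Ank window was the richest of the 3, with 81.2% G and C, 49 CpG and 2 overlapping GC boxes on the opposite strand. Over 32851 windows of the same length the median was 52.4% G and C and 6 CpG, and 32.7% held a GC box, 14% a Runx core and 12.4% a TATA box. None of the 3 windows held TGTGGT, which says only that these letters are not in these bases. The start used in each layer was not tested.

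Genes around the same reactions were taken from 13 lists, which share no gene and hold 180 genes beside the 3 above. Of these, 165 had a single-gene probe set and 137 were tested with limma. The rest were not tested, among them Enpp1 and Phospho1, which had no single-gene probe set. In flat relative to round, 21 (15.3%) rose and 20 (14.6%) fell, beside 8.39% and 8.64% of all genes. In hypertrophic relative to flat, 20 (14.6%) rose and 4 (2.92%) fell, beside 6.12% and 5.22%. In hypertrophic relative to round, 32 (23.4%) rose and 17 (12.4%) fell, beside 12.4% and 12.7%. The lists thus had more rising genes than the array as a whole in each pair of layers. In flat relative to round they also had more falling genes. Both are a description of lists chosen with these data in view.

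Some of these counts rest on single arrays. The 20 that fell in flat became 13 without flat array 1 and 12 without round array 2. The 20 that rose in hypertrophic relative to flat became 12 without hypertrophic array 2 and 13 without hypertrophic array 1, hypertrophic array 3 or flat array 3, and the 4 that fell became 2 without flat array 1. The 17 lower in hypertrophic than in round became 10 without hypertrophic array 2 and 11 without round array 3. With the muscle score as a covariate, 9 rose and 2 fell in flat relative to round, and 6 rose and 2 fell in hypertrophic relative to flat. Of all genes past the threshold, 49.3% were higher in flat than in round and 53.9% higher in hypertrophic than in flat, against 39.7% and 65.2% with each array centred on its median.

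**Figure D3:**
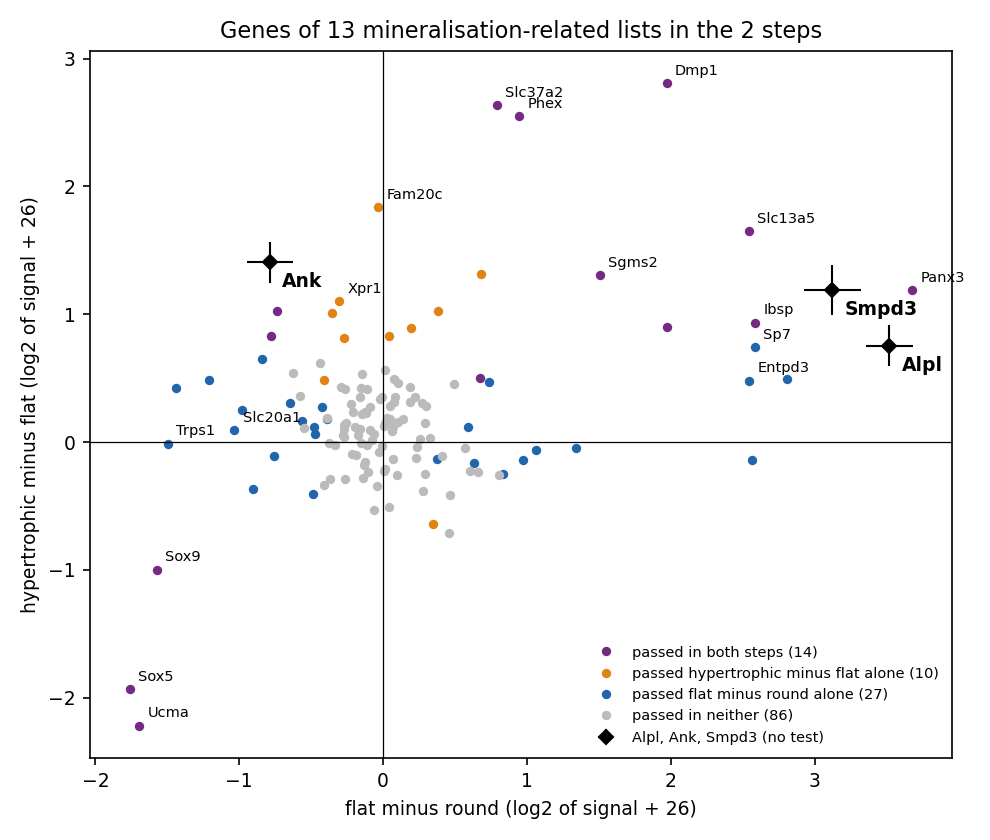
Differences flat minus round (x axis) and hypertrophic minus flat (y axis), both in log2(signal + 26), for 137 tested genes of the 13 lists, coloured by the steps in which limma's adjusted p was under 0.05; black diamonds with SE bars are Alpl, Ank and Smpd3, which were not tested. Of the 137 genes, 14 passed in both steps, 27 in flat minus round alone, 10 in hypertrophic minus flat alone and 86 in neither, and Ank lies in the upper left, apart from Alpl and Smpd3.

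The relatives of Alpl on the array, Alpi, Akp3 and Alppl2, which are alkaline phosphatases of intestine and embryo, stayed below the filter and were not tested. Their signals on the 9 arrays were 7.43 to 134 for Alpi, 8.0 to 111 for Akp3 and 3.68 to 99.4 for Alppl2. Of 23 genes tested that build and attach the lipid anchor that holds Alpl on the cell surface, 0 passed limma's adjusted threshold in flat minus round, with a median log2 difference of 0.07 beside -0.01 for all genes, and 2 higher and 1 lower at an unadjusted p under 0.05. Without round array 1 the adjusted count was 1. In hypertrophic relative to round 2 rose (Pigf and Pigu), but 0 without hypertrophic array 1 or 2 and 1 without hypertrophic array 3, round array 2 or 3 or any 1 of the flat arrays. Pigf was also lost without round array 1 (adjusted p = 0.14), where 1 gene of the list fell. Its call was lost in 13 of 20 alternatives.

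The enzymes that split nucleotides and pyrophosphate varied. Of 13 tested, 2 rose and 2 fell in flat relative to round, and 2 rose and 1 fell in hypertrophic relative to round. The count of 2 that fell in flat was 1 without any single array other than flat array 1, and the 1 lower in hypertrophic than in round was 0 without hypertrophic array 2 or 3 or round array 3. Entpd3, an enzyme of the outer cell surface that removes phosphate from ATP and ADP, had signals of 1248, 1234 and 1248 on hypertrophic arrays, 848, 1136 and 715 on flat arrays and 164, 158 and 83.1 on round arrays. It rose in flat relative to round by 2.54 ± 0.20 (limma, adjusted p = 7.31e-06), and its hypertrophic minus flat difference of 0.48 ± 0.20 did not pass (adjusted p = 0.147). Ppa1, the soluble inorganic pyrophosphatase inside the cell, rose by 0.73 ± 0.14 in flat relative to round (adjusted p = 0.00375), a call that ended with the muscle score as a covariate (adjusted p = 0.619), and by 1.20 ± 0.14 in hypertrophic relative to round (adjusted p = 6.35e-05). Nt5e, which turns AMP into adenosine, was the gene of the list that fell in flat by the most, by 1.21 ± 0.20 on the log2 scale (adjusted p = 0.00131), but not when its probe sets were averaged (adjusted p = 0.126) or with the muscle covariate (adjusted p = 0.684).

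Enpp3, an enzyme of the cell surface that cuts nucleotides and can release pyrophosphate, was lowest in the flat layer, as Ank was, at low signal. It gave 314, 314 and 229 on hypertrophic arrays, 240, 132 and 98.3 on flat arrays and 353, 267 and 212 on round arrays, so the layers overlapped. It fell by 0.78 ± 0.24 in flat relative to round (adjusted p = 0.0461) and rose by 0.83 ± 0.24 in hypertrophic relative to flat (adjusted p = 0.0466). Its hypertrophic minus round difference was 0.05 ± 0.24 (adjusted p = 0.902). The first call was lost without any single array other than flat array 1 (adjusted p of 0.0532 to 0.153), and the second without any other than round array 1 (adjusted p of 0.0525 to 0.209).

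Among the carriers and channels that share Ank's substrates, 4 of 6 tested rose in flat relative to round and 5 of 6 in hypertrophic relative to round, and 0 fell in either, at limma's adjusted threshold or at an unadjusted p under 0.05. Panx3, a channel that releases ATP from hypertrophic chondrocytes and osteoblasts, gave 13099, 12427 and 11946 on hypertrophic arrays, 6895, 7744 and 3040 on flat arrays and 305, 494 and 431 on round arrays. It rose by 3.68 ± 0.25 in flat relative to round (adjusted p = 2.58e-06) and by 1.19 ± 0.25 in hypertrophic relative to flat (adjusted p = 0.00872). The last call was lost without hypertrophic array 1 (adjusted p = 0.0546), without hypertrophic array 3 (0.0688) and with the muscle covariate (0.634). Those arrays also set the list's count in that step, which was 3 and became 1 without either.

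Slc13a5, the citrate carrier of the plasma membrane, gave 6524, 6785 and 6164 on hypertrophic arrays, 2419, 3258 and 1086 on flat arrays and 400, 293 and 308 on round arrays. The increase was graded, with 2.54 ± 0.25 in flat relative to round (adjusted p = 3.14e-05) and 1.65 ± 0.25 in hypertrophic relative to flat (adjusted p = 0.0012). With the muscle covariate both steps missed the threshold (adjusted p = 0.0578 and 0.0949), while hypertrophic minus round was 4.19 ± 0.25 (adjusted p = 1.87e-07) and passed in every alternative run.

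Genes of phosphate uptake and release, 5 carriers and the phosphatase Phospho2, went in different directions. Of these 6 tested, 2 rose and 1 fell in flat relative to round, and 2 rose and 0 fell in hypertrophic relative to flat (limma, with 0 lower also at an unadjusted p under 0.05). The 2 that rose in flat were 0 without round array 2 and 1 without round array 3, hypertrophic array 2 or 3 or any 1 of the flat arrays. Slc20a1, a sodium-dependent importer of phosphate, gave 1685, 1691 and 2426 on hypertrophic arrays, 1843, 1693 and 1817 on flat arrays and 3925, 2942 and 4324 on round arrays. It fell by 1.03 ± 0.14 in flat relative to round (adjusted p = 0.000337), and the hypertrophic arrays stayed near the flat ones. Xpr1, a phosphate exporter, rose by 1.10 ± 0.18 in hypertrophic relative to flat (adjusted p = 0.00193). Slc37a2, a sugar-phosphate exchanger that is also abundant in osteoclasts and macrophages, rose in the same step by 2.64 ± 0.18 (adjusted p = 7.46e-06), from signals of 2676, 2853 and 2272 on hypertrophic arrays and 413, 332 and 446 on flat arrays.

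Osteoclast markers moved with that step. Of 10 tested, 9 rose in hypertrophic relative to flat, and the sum of 11 markers was 76295 to 100430 on hypertrophic, 14276 to 19263 on flat and 7201 to 8827 on round arrays, with none at 0. Their part in the hypertrophic values of Alpl, Ank and Smpd3 was not tested.

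Proteins that bind mineral or hold it back moved both ways. Of 8 tested, 4 rose and 2 fell in flat relative to round, and 5 rose and 1 fell in hypertrophic relative to flat. Ibsp (bone sialoprotein) averaged 43630 ± 4330 in hypertrophic, 23710 ± 7811 in flat and 3989 ± 1570 in round layers (SD, n = 3 each). It rose by 2.59 ± 0.26 in flat relative to round (adjusted p = 3.9e-05) and by 0.94 ± 0.26 in hypertrophic relative to flat (adjusted p = 0.0356). The second call of Ibsp was not followed in the alternative runs. The list's count of 5 in that step was 4 to 5 with 1 array left out. Dmp1, an acidic phosphoprotein of the mineral front, had signals of 24500, 32939 and 24643 on hypertrophic arrays, 3347, 6461 and 2619 on flat arrays and 698, 1036 and 1229 on round arrays. It rose by 1.97 ± 0.22 in flat relative to round (adjusted p = 8.76e-05) and by 2.81 ± 0.22 in hypertrophic relative to flat (adjusted p = 1.89e-05). Phex, a membrane peptidase whose loss causes low blood phosphate, rose by 2.55 ± 0.19 in the last step (adjusted p = 1.74e-05).

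Fam20c, the kinase that phosphorylates secreted proteins of bone, differed by -0.04 ± 0.16 in flat relative to round (adjusted p = 0.91) and rose by 1.84 ± 0.16 in hypertrophic relative to flat (adjusted p = 3.04e-05). Ucma, a protein of young cartilage, fell in each step, by 1.70 ± 0.18 in flat relative to round (adjusted p = 5.9e-05, and 0.0911 with the muscle covariate) and by 2.22 ± 0.18 in hypertrophic relative to flat (adjusted p = 2.23e-05). Several of these genes are also active in osteoblasts. Of 8 osteoblast markers tested, 5 rose and 0 fell in flat relative to round at limma's adjusted threshold or at an unadjusted p under 0.05 (Sp7, Ibsp, Dmp1, Phex and Ifitm5), and 4 rose and 1 fell in hypertrophic relative to flat. In hypertrophic relative to round, 5 rose and 1 fell. Their mean score, in log2 units relative to the 9 arrays, was 0.965 to 1.22 on hypertrophic, -0.380 to 0.566 on flat and -1.39 to -1.25 on round arrays, an order shared with Alpl and Smpd3. Ibsp and Phex were also used as hypertrophic markers and Sp7 as a prehypertrophic marker, so the score cannot tell osteoblasts from hypertrophic chondrocytes. The sum of 9 osteoblast markers was 242300 to 282760 on hypertrophic, 181020 to 293360 on flat and 182090 to 230110 on round arrays, with none at 0, and their part in the values of Alpl and Smpd3 was not tested.

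Smpd3 was also set beside its own relatives. The 5 others tested were Smpd1, Smpd2, Smpd4 and the sphingomyelinase-like Smpdl3a and Smpdl3b. Of these, 0 rose and 1 (Smpdl3a) fell in flat relative to round at limma's adjusted threshold. There was 1 higher at an unadjusted p under 0.05, and 1 higher at the adjusted threshold without flat array 3. In hypertrophic relative to round 1 rose and 1 fell, and the number that fell was 2 without hypertrophic array 1 and 0 without hypertrophic array 2 or round array 3. Smpd1, the acid sphingomyelinase of lysosomes, gave 1889, 2111 and 1963 on hypertrophic arrays, 1482, 1586 and 1344 on flat arrays and 1098, 1439 and 1353 on round arrays. It rose by 0.61 ± 0.13 in hypertrophic relative to round (adjusted p = 0.00475, and 0.0538 when its probe sets were averaged). Smpd2 and Smpd4, neutral enzymes like Smpd3, differed by -0.37 ± 0.24 (adjusted p = 0.325) and 0.09 ± 0.21 (adjusted p = 0.809) in flat minus round. Smpdl3a, a relative of the acid enzyme Smpd1, fell by 0.98 ± 0.17 in flat relative to round (adjusted p = 0.00184, and 0.815 with the muscle covariate).

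The enzymes that make sphingomyelin moved apart from each other. Sgms2, the synthase of the plasma membrane, gave 14642, 15357 and 11972 on hypertrophic arrays, 8507, 6251 and 3317 on flat arrays and 2810, 1586 and 1680 on round arrays. It rose by 1.31 ± 0.20 in hypertrophic relative to flat (adjusted p = 0.0012) and by 1.51 ± 0.20 in flat relative to round (adjusted p = 0.000234, and 0.293 with the muscle covariate). Sgms1, the synthase of the Golgi, fell by 0.90 ± 0.18 in flat relative to round (adjusted p = 0.00375) and was lower in hypertrophic than in round by a log2 difference of -1.27 ± 0.18 (adjusted p = 0.00021). Of 23 genes tested in ceramide and sphingosine metabolism, 1 rose and 5 fell in flat relative to round. The 5 were 3 without any 1 of the flat arrays or round array 3 and 2 without round array 2, and without round array 3 there were 2 that rose.

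Phosphocholine, the other product of Smpd3, is handled by a list of which 12 genes were tested. Enpp6 of this list was below the filter on mean signal and was not tested. Its signals were 480, 390 and 311 on hypertrophic arrays, 126, 17.9 and 62.8 on flat arrays and 123, 28.9 and 57.4 on round arrays. In hypertrophic relative to flat 1 rose, the choline carrier Slc44a1, by 1.01 ± 0.14 (adjusted p = 0.000876), with adjusted p = 0.39 when its probe sets were averaged and 0.135 with the muscle covariate. Among 16 zinc transporters, which supply the metal of Alpl, 5 rose in hypertrophic relative to flat and 0 fell at limma's adjusted threshold or at an unadjusted p under 0.05. The count of 5 was 3 without hypertrophic array 1 and 2 without hypertrophic array 2, hypertrophic array 3 or flat array 3. The zinc exporter Slc30a1 fell by 0.73 ± 0.19 in flat relative to round (adjusted p = 0.0192) and rose by 1.02 ± 0.19 in hypertrophic relative to flat (adjusted p = 0.00462). Its hypertrophic minus round difference of 0.29 ± 0.19 did not pass (adjusted p = 0.302). The first of these was lost without round array 1 (adjusted p = 0.0835), flat array 1 (0.125) or round array 2 (0.0514), and both were lost when its probe sets were averaged (0.243 and 0.679) and with the muscle covariate (0.262 and 0.115). The zinc and manganese importer Slc39a8 was higher in hypertrophic than in round by 2.0 ± 0.33 on the log2 scale (adjusted p = 0.000833).

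Annexins, calcium-binding proteins of matrix vesicles, did not rise with Alpl. Of 6 tested, 0 rose in any pair of layers at limma's adjusted threshold or at an unadjusted p under 0.05, and 4 fell in flat relative to round. Anxa4 fell by 0.76 ± 0.13 (adjusted p = 0.00122, and 0.291 with the muscle covariate). The count of 4 was 1 without flat array 1 and 2 without any 1 of 6 other arrays (flat 3, round 2, round 3 and each hypertrophic array). In vitamin B6 metabolism, whose phosphate form Alpl also splits, 1 of 3 tested genes rose in flat relative to round (Pdxp, by 0.83 ± 0.20, adjusted p = 0.0137), which was lost without flat array 3 (0.102), round array 3 (0.0756) or both flat array 3 and round array 1 (0.125), and with the muscle covariate (0.63).

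Transcription factors of hypertrophy and bone moved both ways. Of 16 tested, 6 rose and 4 fell in flat relative to round, and 8 rose and 5 fell in hypertrophic relative to round. Dlx5 rose by 2.81 ± 0.28 (adjusted p = 3.99e-05), Sp7 (osterix) by 2.58 ± 0.23 (adjusted p = 1.34e-05) and Runx3 by 2.56 ± 0.25 (adjusted p = 3.6e-05) in flat relative to round. Their hypertrophic minus flat differences were 0.49 ± 0.28 (adjusted p = 0.324), 0.74 ± 0.23 (adjusted p = 0.0544) and -0.14 ± 0.25 (adjusted p = 0.798), so the passed increase of each lay in the first step, where most of the log2 difference of Alpl and Smpd3 also lay. Sox5, a factor of young cartilage, fell in hypertrophic relative to flat by 1.93 ± 0.20 (adjusted p = 9.12e-05) and was lower in hypertrophic than in round by a log2 difference of -3.69 ± 0.20 (adjusted p = 9.43e-08).

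The genes whose profile over the 9 arrays was most like Alpl were Entpd3 (r of 0.994), Rftn1 (0.993), Gpc1 (0.993), Pth1r (0.992) and Ifitm5 (0.991). Pth1r, the receptor of parathyroid hormone and its related peptide, averaged 12248 ± 1250 in hypertrophic, 7971 ± 3075 in flat and 1578 ± 228 in round layers (SD, n = 3 each). Its flat minus round difference was 2.24 ± 0.17, smaller than that of Alpl on the same scale. Ifitm5, a membrane protein of mineralising osteoblasts, averaged 10820 ± 1173 in hypertrophic, 4812 ± 2265 in flat and 349.6 ± 24.0 in round layers (SD, n = 3 each), a flat minus round difference of 3.55 ± 0.24. It stood among the 5 most like both Alpl and Smpd3.

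For Smpd3 the 5 were Panx3 (r of 0.991), Ifitm5 (0.988), Pawr (0.988), Pxylp1 (0.986) and Sh3pxd2b (0.985). They shared the order of layers but not the size, as flat minus round was 3.68 ± 0.25 for Panx3 and 0.85 ± 0.12 for Pxylp1. Of 11310 other genes, 68 had an r above 0.95 with Smpd3 and 59 with Alpl. Ank had 1 such gene, Rab21 (r of 0.965), a small GTPase of endosomes.

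Next for Ank came Plvap (0.943), Glb1 (0.932), Nadk (0.929) and Exoc3l2 (0.923). Plvap, a protein of endothelial cells, averaged 3296 ± 142 in hypertrophic, 1956 ± 208 in flat and 2764 ± 132 in round layers (SD, n = 3 each). Vwf, also a gene of endothelial cells, went the other way and was among the 5 genes most unlike Ank (r of -0.910). Glb1, the lysosomal beta-galactosidase, averaged 1904 ± 236 in hypertrophic, 805 ± 126 in flat and 1012 ± 96.6 in round layers. All of these profiles are set mostly by the 3 layers and share the arrays, so likeness was not tested. By Spearman's rho, 0 of the 5 genes named for Alpl, 2 for Ank and 0 for Smpd3 were again among the 5 most like.

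**Figure D4:**
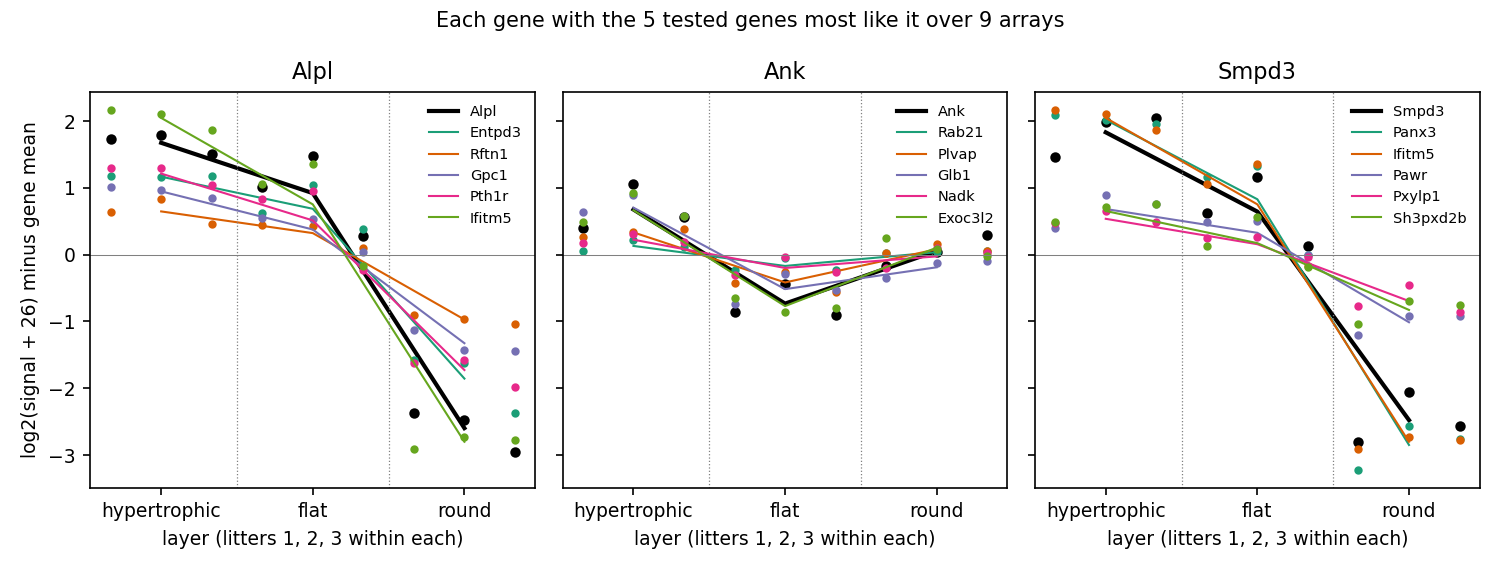
Log2(signal + 26) minus each gene's mean over the 9 arrays (y axis) for Alpl, Ank and Smpd3 in black and the 5 tested genes most like each in colour; points are arrays, in the order litter 1, 2, 3 within a layer, and lines join the layer means. Ank and its 5 genes dip in the flat layer, where Alpl, Smpd3 and theirs lie above the round layer.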

How the data were processed

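RNA from 9 samples, 3 layers by 3 litters, was hybridised to 1 array each. The deposited values are MAS5 signal intensities made by the authors with Affymetrix Expression Console, per the submitters' processing notes (with no version named in the sources used here), and every array of the deposited table has the same trimmed mean of 500.003. The number of arrays limits the precision.

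Of 45101 probe sets, 64 were controls, 34945 of the rest had 1 gene, 932 several and 9160 none, and 34741 were matched to RefSeq by gene identifier. Values were log2(signal + 26), where 26 is the 20th percentile of all signals, so a difference is understated for dim genes. For each gene, the brightest of its single-gene probe sets (by mean over the arrays) stood for it, and it was tested if that mean exceeded 7.21 on the log2 scale, the median over all non-control probe sets. Differences were fitted with limma 3.58.1 (R 4.3.3) on all 9 arrays, with litter as a fixed block and a mean-variance trend, and Benjamini-Hochberg adjustment ran over the 11313 genes of each contrast at 0.05. Every adjusted p in the text is from limma. Rose and fell are used only for genes past that threshold, and an SE is that of the fit. For the probe sets of Alpl, Ank and Smpd3 the main SEs come from the same model fitted over all non-control probe sets. Their SEs in the alternatives come from the fit over genes, in which the main SE of Smpd3 was 0.20 rather than 0.19.

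The replicate number is read as the litter, since the labels' protocols give 3 litters and 1 litter a sample. In the data, arrays of the same litter deviated from their layer means with r of 0.167 to 0.517 (9 pairs), against -0.434 to 0.081 for different litters (18 pairs). P-values rest on the spread of these pooled samples that is left after layer and litter are fitted, moderated across genes.

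The 3 genes and the gene lists were chosen with earlier results of these data known. The text draws on the probe sets of the 3 genes, the 5 genes most like each by Pearson's r, and up to 4 genes per list and contrast with the largest differences past the threshold. Smpd2, Smpd4, Enpp6, Vwf, the other alkaline phosphatases and values in further contrasts were named outside that rule, after their values were seen. Alternatives changed the pseudocount, filter, scaling, probe set rule, block, trend, arrays and muscle covariate (the mean of 19 muscle genes). Leaving out both arrays that stood apart was also planned, and leaving out a litter was added after seeing the data. The fit was tested on simulated data.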

Additional observations from a re-analysis of the deposited data

How the results depend on the processing

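None of the 9 differences of Alpl, Ank and Smpd3 changed sign in the 24 alternatives run on each. Leaving out 1 array at a time gave, for flat minus round, 3.30 to 3.71 (Alpl), -0.96 to -0.60 (Ank) and 2.95 to 3.41 (Smpd3), and, for hypertrophic minus flat, 0.56 to 0.97, 1.28 to 1.48 and 0.90 to 1.35. For hypertrophic minus round the ranges were 4.11 to 4.38, 0.44 to 0.81 and 4.05 to 4.47. A pseudocount of 135 moved Smpd3 to 2.64 in flat minus round and 3.78 in hypertrophic minus round, and Alpl to 4.05 in hypertrophic minus round, as a larger pseudocount shrinks differences against dim arrays. Averaging the Smpd3 probe sets gave 3.36, 1.12 and 4.48 for the contrasts in the same order.

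Counts of genes were less stable. In flat minus round 1926 genes passed, and 935 without the replicate block. Hypertrophic minus flat had 1283 against 553, and hypertrophic minus round 2840 against 1824. With the muscle score as a covariate they were 376 in flat minus round and 191 in hypertrophic minus flat. The covariate fit has fewer residual degrees of freedom, and the muscle score itself varies with the layers. It was 0.41 to 1.46 on flat, -0.88 to 0.57 on hypertrophic and -1.06 to -0.19 on round arrays. With the covariate the SE of Alpl went from 0.16 to 0.39 in flat minus round, and to 0.18 in hypertrophic minus round. The cause of the lower counts was not tested further. Leaving out 1 array at a time gave 1225 to 1956 for the first contrast, 591 to 1658 for the second and 1770 to 2924 for the third, with the lowest values without round array 2, hypertrophic array 1 and hypertrophic array 2. Hypertrophic minus flat was also below 1283 by over 1.5 times without flat array 1 (698), hypertrophic array 2 (692) and hypertrophic array 3 (732).

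For the list genes, without the replicate block 12 were lower in flat than in round, 13 higher and 2 lower in hypertrophic than in flat and 11 lower in hypertrophic than in round. Averaging probe sets left 13 lower in flat than in round. The muscle covariate left 9 higher and 2 lower in flat than in round and 6 higher and 2 lower in hypertrophic than in flat. Leaving out 1 array at a time gave 12 to 18 lower in flat than in round, 12 to 25 higher and 2 to 4 lower in hypertrophic than in flat, and 10 to 18 lower in hypertrophic than in round. Of 85 differences of named list genes, 40 passed in every alternative in which the gene was tested (21 for 35 of the 40, and 20 or 19 for the other 5) and 45 were lost in at least 1. Kdsr, an enzyme of ceramide synthesis that fell in flat relative to round (adjusted p = 0.0364), reversed with the muscle covariate (0.23), and the cause was not tested. Its call was also lost in 9 of the other alternatives, among them without flat array 3 (adjusted p = 0.132), round array 2 (0.179) or round array 3 (0.165). Of the 5 genes most like each, Spearman's rho kept 0 for Alpl, 2 for Ank and 0 for Smpd3, and removing litter means kept 2, 1 and 2. Signals near the pseudocount of 26, as in 2 Smpd3 probe sets on round arrays, limit those folds.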
